A study of Homo sapiens with 6 samples.

Results

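Neuroendocrine granule genes were examined in SW480 cells, an established line from a human colorectal adenocarcinoma, in which PCYT2 had been knocked down with either of 2 short hairpin RNAs. The 9 genes, of 19746 in the expression tables, are CHGA, CHGB, SCG2, VGF, SCG5, PCSK1N, PCSK1, CPE and SYP, and they were found by matching their Ensembl identifiers to gene symbols. VGF and SYP were chosen by their log2 fold change with shPcyt2-1, which is among the highest of all genes, so their values are given as a description with no test, and the other 7 are tested where their level allowed it. Cells carrying a nontargeting hairpin (shNT), shPcyt2-1 or shPcyt2-2 gave 2 libraries each, 6 in all, and the shNT cells serve as the controls of both knockdowns. All 3 groups share the lentiviral pLKO.1 hairpin vector and puromycin selection, no other treatment or time is given in the labels, and nothing says that the 2 libraries of a group came from separate cultures, so p-values measure only the spread between these libraries. The values are FPKM, fragments scaled to transcript length and to library size, and each library lists between 18879 and 19301 rows above 0, with a sum of between 396467 and 402612 FPKM. Genes that a library does not list were set to 0, and since the number of reads is unknown, precision rests on having 2 libraries a group.

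Endocrine, neuroendocrine and many nerve cells store peptide hormones in dense-core granules and release them when calcium rises. Granins, acidic proteins that aggregate in the trans-Golgi network, load the granule, and the prohormone convertases and carboxypeptidase E then trim the stored precursors to active peptides. In the gut this equipment belongs to enteroendocrine cells, and chromogranin A and synaptophysin are the usual stains for neuroendocrine differentiation in a carcinoma.

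The knockdown itself was read first. PCYT2, the enzyme that makes CDP-ethanolamine for phosphatidylethanolamine synthesis, was at 11.6 and 13.8 FPKM in the shNT libraries, 7.11 and 7.36 with shPcyt2-1, and 6.71 and 6.18 with shPcyt2-2. Neither hairpin's libraries overlapped those of shNT. On the log2(FPKM + 1) scale PCYT2 fell by 0.73 (SE 0.1, adjusted p = 0.00205) with shPcyt2-1 and by 0.88 (SE 0.1, adjusted p = 0.00261) with shPcyt2-2, and the difference between the hairpins was -0.15 (adjusted p = 0.309). Unless another setting is named, adjusted p-values come from limma over the 12756 genes with a mean of at least 0.5 FPKM, and a gene is called where its adjusted p is under 0.05.

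VGF (chromosome 7, 101162509 to 101165593, GENCODE 29 on GRCh38), a granin-like precursor of secreted neuropeptides, stood at 4.21 and 5.03 FPKM in the shNT libraries, 27.8 and 27.0 with shPcyt2-1, and 2.97 and 3.93 with shPcyt2-2. Both shPcyt2-1 libraries lay far above the other 4, and both shPcyt2-2 libraries lay below both shNT libraries. The mean was 4.62 ± 0.579 FPKM (SD, n = 2) with shNT, 27.4 ± 0.54 with shPcyt2-1 and 3.45 ± 0.682 with shPcyt2-2, which is a ratio to shNT of 5.93 and 0.747. Its log2 fold change was 2.34 with shPcyt2-1, the 4th highest of the 12756 genes tested, and -0.34 with shPcyt2-2. Leaving out single libraries moved the latter between -0.50 (without shPcyt2-2 replicate 2) and -0.18 (without shPcyt2-2 replicate 1).

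SYP (chromosome X, 49187804 to 49200259, GENCODE 29 on GRCh38) encodes synaptophysin, a membrane protein of small synaptic-like vesicles. Its level was 0.910 and 1.35 FPKM with shNT, 7.27 and 8.16 with shPcyt2-1, and 0.722 and 0.828 with shPcyt2-2. The order of the groups was the same as for VGF, with shPcyt2-1 above and shPcyt2-2 below every shNT library. The ratio of the means to that of shNT was 6.83 with shPcyt2-1 and 0.686 with shPcyt2-2, and the log2 fold change was 2.04 (the 7th highest of those tested) and -0.26, the latter moving between -0.40 (without shNT replicate 1) and -0.11 (without shNT replicate 2). Between the hairpins, shPcyt2-1 cells held 7.94-fold more VGF and 9.96-fold more SYP than shPcyt2-2 cells, and PCYT2 was at 7.23 ± 0.171 and 6.44 ± 0.379 FPKM in these groups. SYP overlaps an antisense gene, SYP-AS1, which was listed in 1 shNT library only, at 0.0488 FPKM, and whether the counting used strand is not given in the sources used here. In bulk RNA, more cells that express a gene and more RNA per cell cannot be told apart.

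**Figure D1:**
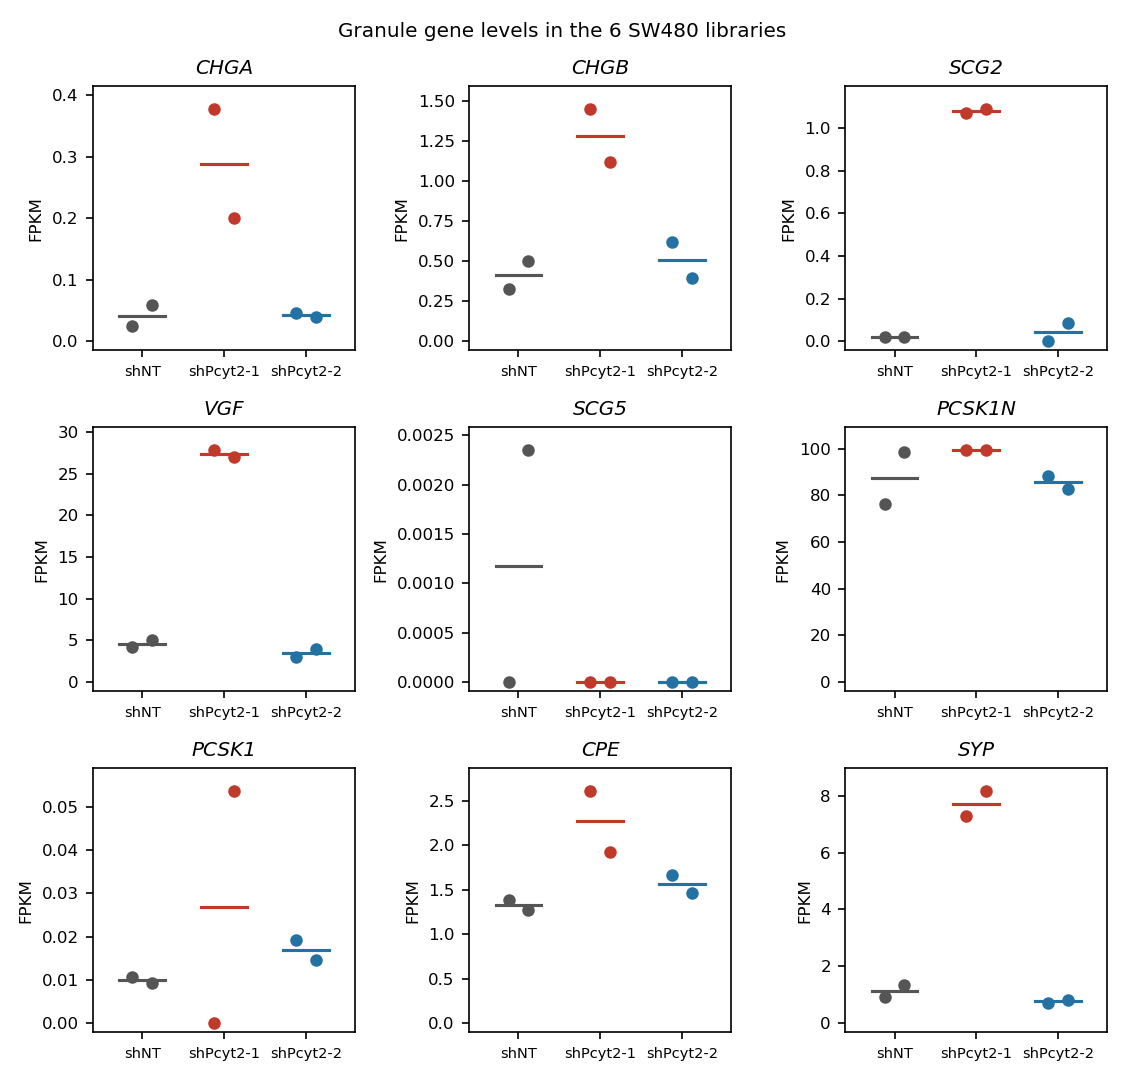
Level of each of the 9 granule genes in FPKM (linear vertical axes that differ between panels) in the 2 libraries of shNT, shPcyt2-1 and shPcyt2-2, with points for libraries and lines for group means. The shPcyt2-1 points stand above all others for VGF, SYP, CHGB, SCG2, CHGA and CPE, while PCSK1N lies between 76.3 and 99.4 FPKM in all 6 libraries and SCG5 and PCSK1 stay near 0.

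Granin genes are known targets of the cAMP-responsive factor CREB, whose element reads TGACGTCA. Promoters are printed for VGF and SYP, the pair chosen for its change. CHGA and PCSK1, with means under 0.5 FPKM, are printed as well, and both hold this element. SCG5, also under 0.5 FPKM, PCSK1N and CPE do not hold it and are not printed. The printed lines therefore show the element more often than the members with an entry do. RefSeq promoter entries (GRCh38.p14) were used for 7 of the 9 members. Each line gives the 250 bases before the transcript start on the strand of the gene, 5′ to 3′, with TGACGTCA and the shorter TGACG (read on the strand shown) in capitals. The starts are those of RefSeq, and in GENCODE 29 the outermost starts of the 4 printed genes lie upstream of them. Part or all of each printed window therefore falls inside a GENCODE transcript.

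VGF, chr7:101165570-101165819, minus strand: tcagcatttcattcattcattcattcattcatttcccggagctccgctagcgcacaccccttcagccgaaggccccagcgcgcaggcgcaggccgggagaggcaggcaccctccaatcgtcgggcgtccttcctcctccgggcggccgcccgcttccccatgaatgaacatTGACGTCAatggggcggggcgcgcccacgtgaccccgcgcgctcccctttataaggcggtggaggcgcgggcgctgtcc
SYP, chrX:49200194-49200443, minus strand: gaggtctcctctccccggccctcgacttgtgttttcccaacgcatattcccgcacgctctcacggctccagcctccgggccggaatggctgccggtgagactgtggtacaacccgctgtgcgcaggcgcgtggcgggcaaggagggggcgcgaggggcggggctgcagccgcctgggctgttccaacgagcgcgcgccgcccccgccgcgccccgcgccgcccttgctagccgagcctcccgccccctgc
CHGA, chr14:92922900-92923149, plus strand: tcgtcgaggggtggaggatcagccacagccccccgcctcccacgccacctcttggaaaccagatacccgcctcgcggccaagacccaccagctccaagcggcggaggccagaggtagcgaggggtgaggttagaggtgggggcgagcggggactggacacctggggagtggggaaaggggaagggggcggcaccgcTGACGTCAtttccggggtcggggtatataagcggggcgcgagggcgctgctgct
PCSK1, chr5:96433249-96433498, minus strand: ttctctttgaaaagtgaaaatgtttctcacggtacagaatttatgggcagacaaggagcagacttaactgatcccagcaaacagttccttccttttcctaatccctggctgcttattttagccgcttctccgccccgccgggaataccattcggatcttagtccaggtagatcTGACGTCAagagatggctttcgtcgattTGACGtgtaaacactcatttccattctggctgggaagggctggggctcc

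VGF carries TGACGTCA at -79 to -72 from the start, CHGA at -54 to -47, and PCSK1 at -77 to -70 for the first of its 2 listed starts. Searched on both strands, these letters occur in 578 of the 35116 RefSeq promoters of the same length (1.65%), and TGACG, which every TGACGTCA contains, in 21.2%. Outside a full match, CPE has TGACG at -221 to -217 and at -120 to -116, SCG5 at -17 to -13, and the first start of PCSK1 at -49 to -45. No TGACG lies in the SYP and PCSK1N windows or before the other PCSK1 start. GGGCGG, the letters bound by SP1-type factors, lies at 4 places in SYP and 3 in VGF. CHGA, SCG5, PCSK1N and both PCSK1 windows hold it at 1 place each, and CPE does not hold it. Of all promoters, 42.6% hold it at least once. TTCAGCACC, a core stretch of the element bound by the neuronal repressor REST, occurs in 0.288% of promoters and in none of these 7. Levels among the 3 genes that carry TGACGTCA differed widely, VGF reaching 27.8 FPKM while CHGA stayed under 0.4 FPKM and PCSK1 under 0.06 FPKM. For VGF and CHGA both shPcyt2-1 libraries lay above all others, and for PCSK1 they overlapped the others. A match describes letters and not a bound factor.

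Among the granins, CHGB rose with shPcyt2-1 and not detectably with shPcyt2-2. Chromogranin B was at 0.326 and 0.502 FPKM with shNT, 1.45 and 1.12 with shPcyt2-1, and 0.618 and 0.392 with shPcyt2-2. Both shPcyt2-1 libraries were above all others, and the shPcyt2-2 libraries overlapped those of shNT. Its log2 fold change was 0.69 (SE 0.131, adjusted p = 0.00679) with shPcyt2-1 and 0.09 (adjusted p = 0.682) with shPcyt2-2, and shPcyt2-2 lay 0.60 below shPcyt2-1 on this scale (adjusted p = 0.01). CHGB passed the limit of 0.5 FPKM only through its shPcyt2-1 libraries, with means of 0.414 FPKM with shNT and 0.505 with shPcyt2-2, and with no limit the adjusted p was 0.0376 with shPcyt2-1 and 0.0406 between the hairpins. The last difference no longer passed without shPcyt2-1 replicate 1 (-0.50, adjusted p = 0.0675) or without shPcyt2-2 replicate 2 (-0.50, adjusted p = 0.0611).

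SCG2 and CHGA had means under 0.5 FPKM and were left out of the fit. SCG2, the precursor of secretoneurin, was at 0.0204 and 0.0198 FPKM with shNT, at 1.07 and 1.09 with shPcyt2-1, and in shPcyt2-2 cells it was listed in replicate 2 alone, at 0.0838. Every shPcyt2-1 library was thus above every other library, from a level too low for a fold change to be given. With no limit on low values, the adjusted p over all 19746 genes was 0.0136 for SCG2 with shPcyt2-1, 0.777 with shPcyt2-2 and 0.00754 between the hairpins. CHGA, chromogranin A, was at 0.0246 and 0.0584 FPKM with shNT, 0.377 and 0.200 with shPcyt2-1, and 0.0464 and 0.0390 with shPcyt2-2. It therefore remained under 0.4 FPKM in the libraries where VGF reached 27.8, and its adjusted p with no limit on low values was 0.0584 with shPcyt2-1 and 0.0527 between the hairpins. With a pseudocount of 0.1 as well, a setting added after seeing the data, these were 0.0367 and 0.0314. SCG3, a granin that anchors others to the granule membrane and is not one of the 9 genes, was at 0.0564 and 0.0438 FPKM with shNT, 0.321 and 0.400 with shPcyt2-1, and at 0 and 0.0128 with shPcyt2-2.

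Of the convertase and its chaperones, PCSK1N alone passed the limit of 0.5 FPKM, and it was not called. PCSK1N encodes proSAAS, an inhibitor of the PCSK1 convertase, and was by far the most abundant of the 9 genes, at 76.3 and 98.7 FPKM with shNT, 99.4 and 99.4 with shPcyt2-1, and 88.5 and 82.9 with shPcyt2-2. Both shPcyt2-1 libraries lay above the other 4, the shNT libraries spanned a wider range than either knockdown, and the log2 fold changes of 0.19 (adjusted p = 0.195) and -0.02 (adjusted p = 0.925) did not pass. Without shNT replicate 2 the change with shPcyt2-1 was 0.38 and passed, whereas without shNT replicate 1 it was 0.0094 and did not. Without either shNT library the difference between the hairpins passed (-0.21), against an adjusted p of 0.162 with all 6 libraries. PCSK1, the convertase that cuts prohormones in the granule, did not exceed 0.0536 FPKM in any library. SCG5, the chaperone of the convertase encoded by PCSK2, was listed only in shNT replicate 2, at 0.00235 FPKM, and PCSK2 was not listed.

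CPE encodes carboxypeptidase E, which removes the basic residues left by the convertases. It was at 1.39 and 1.27 FPKM with shNT, 2.61 and 1.93 with shPcyt2-1, and 1.67 and 1.47 with shPcyt2-2. Both knockdowns lay above both shNT libraries, and shPcyt2-1 lay above shPcyt2-2. The log2 fold change was 0.48 (SE 0.125, adjusted p = 0.0231) with shPcyt2-1 and 0.14 (adjusted p = 0.479) with shPcyt2-2, and the difference of -0.34 between the hairpins did not pass (adjusted p = 0.0724). The shPcyt2-1 call was lost without shNT replicate 1 (adjusted p = 0.0534), without shNT replicate 2 (adjusted p = 0.105), without shPcyt2-1 replicate 1 (adjusted p = 0.197) and with no limit on low values (adjusted p = 0.0835).

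Of the 9 genes, 5 passed the limit of 0.5 FPKM, and 3 of these are outside the pair chosen for its change. As CHGB passed only through its shPcyt2-1 level, the counts that follow describe the tested members and support nothing further. With shPcyt2-1, 2 of these 3 rose, none fell and their median log2 fold change was 0.48, while over all tested genes 26.7% were called, 16.5% higher and 10.1% lower, with a median of 0.07. With shPcyt2-2, none of the 3 was called by limma, none reached an unadjusted p under 0.05, and their median was 0.09, against 12.4% of all genes called (7.69% higher and 4.74% lower) and a median of 0.04. In shPcyt2-2 against shPcyt2-1, 1 was lower and none higher with a median of -0.34, against 27.1% of all genes (12.9% higher and 14.2% lower) and a median of -0.02. By the libraries alone, 7 of the 9 genes had both shPcyt2-1 libraries above both shNT libraries, as did 43.3% of all tested genes, and 7 had them above both shPcyt2-2 libraries, as did 36.5%. The exceptions in both cases were SCG5 and PCSK1, and 5 of the 7 are outside the pair chosen for its change. These shares are over tested genes, whereas the 9 include CHGA, SCG2, SCG5 and PCSK1, which were not tested. For shPcyt2-2 against shNT, PCSK1 and CPE were above (35.1% of tested genes), VGF and SYP were below (22.4%), and the other 5 overlapped.

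The sum over the 9 genes was carried by PCSK1N, which made up 91.7% and 92.3% of it with shNT, 71.0% and 71.5% with shPcyt2-1, and 93.6% and 92.5% with shPcyt2-2. Without PCSK1N the other 8 summed to 6.89 and 8.24 FPKM with shNT, 40.6 and 39.6 with shPcyt2-1, and 6.04 and 6.76 with shPcyt2-2. VGF alone gave 68.5% and 68.3% of that smaller sum in the shPcyt2-1 libraries, 61.1% and 61.0% in those of shNT, and 49.1% and 58.1% in those of shPcyt2-2. By mean FPKM over the 6 libraries, PCSK1N exceeded 96.7% of listed genes and VGF 76.1%. SYP exceeded 54.8%, CPE 46.7% and CHGB 38.4%, and the other 4 members were lower still, down to 0.349% for SCG5. These means pool all groups, and those of VGF and SYP rest mostly on their high shPcyt2-1 libraries.

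Of the other markers used to identify neuroendocrine cells, INSM1, NEUROD1 and NCAM1 were not called. In the wider lists, 4 of 10 factors (4 higher, 0 lower) and 9 of 15 markers (6 higher, 3 lower) were called with shPcyt2-1. These are 40.0% and 60.0%, against 26.7% of all tested genes. ELAVL2, among the markers called, passed the limit of 0.5 FPKM only with its shPcyt2-1 libraries included. INSM1, a zinc finger factor of endocrine progenitors, was at 1.09 and 1.26 FPKM with shNT, 0.507 and 0.850 with shPcyt2-1, and 1.37 and 0.791 with shPcyt2-2. The log2 fold changes of INSM1 with shPcyt2-1 (-0.38, adjusted p = 0.103) and shPcyt2-2 (-0.08, adjusted p = 0.776) did not pass. NEUROD1, a factor of enteroendocrine differentiation, lay between 1.55 and 2.07 FPKM and NCAM1, an adhesion molecule of nerve cells, between 1.72 and 2.74, and neither passed in any comparison. The epithelial markers EPCAM and KRT8 were between 258 and 312 FPKM and between 2730 and 3860 FPKM in these cells.

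Regulated exocytosis, the fusion step that empties granules, was the longest list. Of its 29 tested genes, 8 rose and 1 fell with shPcyt2-1 (median -0.01), and 1 rose and 3 fell with shPcyt2-2 (median -0.07). The shares called, 31.0% and 13.8%, lay near the 26.7% and 12.4% of all genes. With the libraries scaled by median ratios the shPcyt2-1 split was 7 higher and 4 lower. CPLX2, a complexin that clamps and releases the fusion complex, rose from 3.42 to 8.40 FPKM with shPcyt2-1 (log2 fold change 1.09, SE 0.0971, adjusted p = 0.000405) and fell to 2.11 with shPcyt2-2 (-0.51, adjusted p = 0.0149). The priming factor UNC13A rose from 0.536 to 1.72 FPKM with shPcyt2-1 (0.82, adjusted p = 0.00171) and was at 0.261 with shPcyt2-2 (-0.28, adjusted p = 0.11), and it passed the limit of 0.5 FPKM only with its shPcyt2-1 libraries included. STX1A, the plasma membrane syntaxin of granule fusion, rose from 10.2 to 16.1 FPKM with shPcyt2-1 (0.62, adjusted p = 0.00225) and was at 8.46 with shPcyt2-2 (-0.24, adjusted p = 0.0986). SYT7, a calcium sensor of slow release, fell from 7.02 to 4.46 FPKM with shPcyt2-1 (-0.55, adjusted p = 0.00618). The shPcyt2-1 calls of CPLX2, STX1A and SYT7 passed under all 13 alternatives that kept the 2 hairpins apart, whereas the CPLX2 call with shPcyt2-2 was lost without shNT replicate 2, without either shPcyt2-2 library and with no limit on low values.

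Membrane proteins of granules and vesicles gave 4 higher and 0 lower of 13 tested with shPcyt2-1 (median 0.12) and 3 higher and 0 lower with shPcyt2-2 (median 0.03), SYP left out. These are 30.8% and 23.1% of the list, against 26.7% and 12.4% of all genes. After median-ratio scaling, shPcyt2-1 had 3 up and 1 down, and shPcyt2-2 had 2 up and 1 down. SCAMP5, a secretory carrier protein, rose from 3.05 to 5.88 FPKM with shPcyt2-1 (0.77, adjusted p = 0.00216) and was at 3.12 with shPcyt2-2 (0.02, adjusted p = 0.916). SYPL1, the widely expressed relative of synaptophysin, rose with both hairpins, from 28.4 to 41.5 FPKM (0.54, adjusted p = 0.00307) and 43.7 FPKM (0.60, adjusted p = 0.00512, lost under 3 of 13 alternatives). SCAMP1 likewise rose with both, by 0.37 (adjusted p = 0.0298) and 0.44 (adjusted p = 0.0282), calls lost under 5 and 4 of 13 alternatives. The ATP6AP1 call with shPcyt2-1 (0.24, adjusted p = 0.0468), an accessory subunit of the proton pump that acidifies granules, was lost under 10 of 13 alternatives.

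Granule biogenesis factors gave 1 higher and 4 lower of 14 tested with shPcyt2-1 (median -0.0037) and 1 each way with shPcyt2-2 (median 0.05), or 35.7% and 14.3% called against 26.7% and 12.4% of all genes. BAIAP3, which returns granule proteins to the trans-Golgi network, fell from 4.34 to 1.94 FPKM with shPcyt2-1 (-0.86, adjusted p = 0.00119) and rose to 6.45 with shPcyt2-2 (0.48, adjusted p = 0.0195, lost under 4 of 13 alternatives). RAB2B, a paralog of a small GTPase of dense-core vesicle maturation, rose from 5.32 to 9.08 FPKM with shPcyt2-1 (0.67, adjusted p = 0.00225). VPS51, a subunit of the retrograde tethering complex of the Golgi and the most abundant gene of this list, fell with both hairpins, by 0.27 (adjusted p = 0.026) and 0.41 (adjusted p = 0.0125), calls lost under 6 and 4 of 13 alternatives, the first value being -0.37 without shNT replicate 1 and -0.17 without shNT replicate 2. HID1, a factor of granule acidification, fell by 0.30 with shPcyt2-1 (adjusted p = 0.0396), a call that was lost under 6 of 13 alternatives.

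Prohormone processing enzymes other than the members gave 0 higher and 1 lower of 10 with shPcyt2-1 (median 0.01) and 1 higher and 0 lower with shPcyt2-2 (median 0.07), or 10.0% called each time against 26.7% and 12.4% of all genes. PAM, the enzyme that amidates peptide hormones, was at 41.4 FPKM with shNT, 44.3 with shPcyt2-1 and 59.1 with shPcyt2-2, and it rose with shPcyt2-2 (0.50, adjusted p = 0.0102, lost under 4 of 13 alternatives) but not detectably with shPcyt2-1 (0.10, adjusted p = 0.424). The fall of CPZ with shPcyt2-1 (-0.44, adjusted p = 0.0443), a secreted carboxypeptidase, was lost under 8 of 13 alternatives, with values of -0.60 without shPcyt2-1 replicate 2 and -0.29 without shPcyt2-1 replicate 1.

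**Figure D2:**
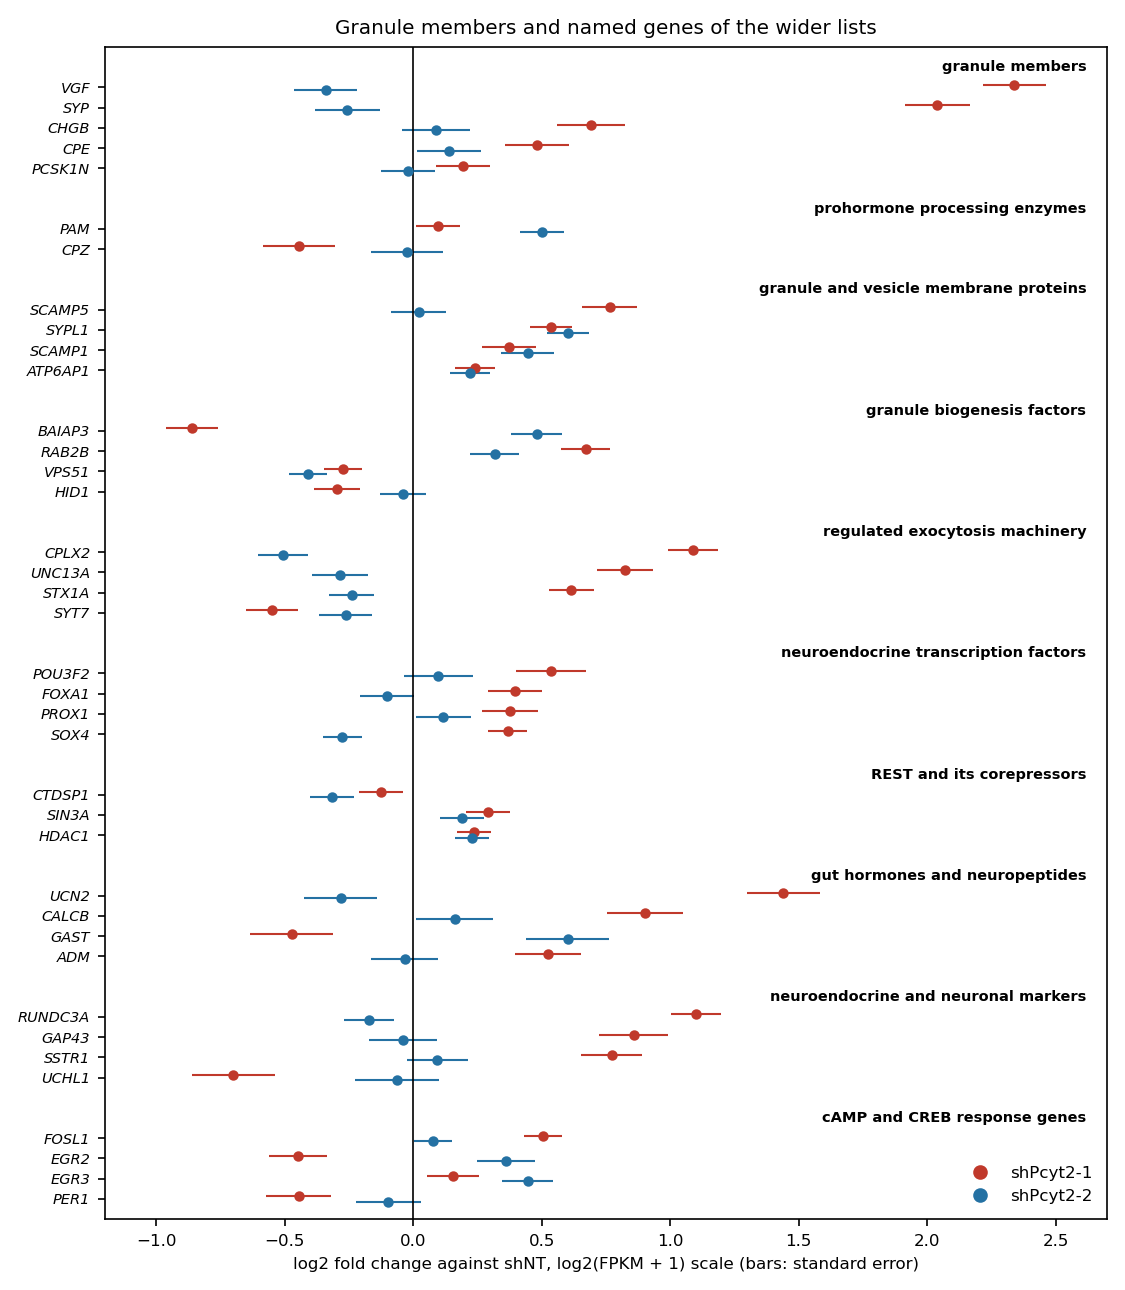
Log2 fold change against shNT on the log2(FPKM + 1) scale, with standard errors, for the 5 tested members and the named genes of the wider lists, in red for shPcyt2-1 and blue for shPcyt2-2. VGF (2.34) and SYP (2.04) lie farthest to the right with shPcyt2-1, and VGF (-0.34) and SYP (-0.26) lie left of 0 with shPcyt2-2. BAIAP3 and GAST lie left with shPcyt2-1 and right with shPcyt2-2.

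Peptide precursors of the gut and nervous system were mostly not listed or low, since 22 of 39 were listed and 9 could be tested. Of these, 4 rose and 1 fell with shPcyt2-1 (median 0.02), and 1 rose and 0 fell with shPcyt2-2 (median -0.03), the latter split being 0 and 1 after median-ratio scaling. The shares called were 55.6% and 11.1%, against 26.7% and 12.4% of all genes. UCN2, the CRH-family peptide urocortin 2, rose from 1.31 to 5.25 FPKM with shPcyt2-1 (1.44, SE 0.142, adjusted p = 0.000638) and was at 0.917 with shPcyt2-2 (-0.28, adjusted p = 0.213). CALCB, a calcitonin gene-related peptide, rose from 2.57 to 5.67 FPKM with shPcyt2-1 (0.90, adjusted p = 0.00404) and was at 3.03 with shPcyt2-2 (0.16, adjusted p = 0.493). ADM, the vasodilator adrenomedullin, rose by 0.53 with shPcyt2-1 (adjusted p = 0.0188, lost under 4 of 13 alternatives). GAST, the hormone gastrin, was at 7.83 FPKM with shNT, 5.41 with shPcyt2-1 (-0.47, adjusted p = 0.057) and 12.6 with shPcyt2-2 (0.60, adjusted p = 0.0424), and its shPcyt2-2 call was lost under 8 of 13 alternatives. Its change ranged from 0.36 (without shPcyt2-2 replicate 2) to 0.84 (without shPcyt2-2 replicate 1) with shPcyt2-2, and from -0.65 (without shPcyt2-1 replicate 2) to -0.30 (without shPcyt2-1 replicate 1) with shPcyt2-1. GAL, the neuropeptide galanin, was the most abundant of the list at between 113 and 140 FPKM and did not pass with either hairpin. Glucagon (GCG), somatostatin (SST) and cholecystokinin (CCK) were not listed.

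Among neuroendocrine and neuronal markers, 6 rose and 3 fell of 15 tested with shPcyt2-1 (median 0.03), and 0 rose and 1 fell with shPcyt2-2 (median -0.04). That is 60.0% called with shPcyt2-1 against 26.7% of all genes, and 6.67% against 12.4% with shPcyt2-2. ELAVL2, 1 of the 6, was at 0.356 FPKM with shNT, 0.745 with shPcyt2-1 and 0.565 with shPcyt2-2 and passed the limit of 0.5 FPKM only with its shPcyt2-1 libraries included. RUNDC3A, an effector of the GTPase RAP2 found in nerve cells, rose from 4.98 to 11.8 FPKM with shPcyt2-1 (1.10, SE 0.0973, adjusted p = 0.000405) and was at 4.31 with shPcyt2-2 (-0.17, adjusted p = 0.261). GAP43, a protein of growing axons, rose from 0.531 to 1.77 FPKM (0.86, adjusted p = 0.00346), and the somatostatin receptor SSTR1 rose from 3.71 to 7.07 FPKM (0.77, adjusted p = 0.00306). UCHL1, a ubiquitin hydrolase of neurons, fell from 2.32 to 1.04 FPKM (-0.70, adjusted p = 0.0148, lost under 4 of 13 alternatives). TUBB3, neuronal beta-tubulin and the most abundant gene of the list, rose from 113 and 120 FPKM to 147 and 148 with shPcyt2-1 (0.34, adjusted p = 0.00426). The markers therefore moved in both directions with shPcyt2-1.

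Transcription factors of neuroendocrine differentiation gave 4 higher and 0 lower of 10 with shPcyt2-1 (median 0.22), and 0 higher and 1 lower with shPcyt2-2 (median -0.03), or 40.0% and 10.0% called against 26.7% and 12.4% of all genes. SOX4, the most abundant of them, rose from 63.0 to 81.6 FPKM with shPcyt2-1 (0.37, adjusted p = 0.00948) and fell to 52.0 with shPcyt2-2 (-0.28, adjusted p = 0.0465, lost under 9 of 13 alternatives). POU3F2 (0.54, adjusted p = 0.0202), FOXA1 (0.40, adjusted p = 0.0244) and PROX1 (0.38, adjusted p = 0.0328) also rose with shPcyt2-1, each call being lost under 5 or 6 of 13 alternatives. REST, the repressor that keeps neuronal genes silent in other cells, was at 4.13 FPKM with shNT, 3.93 with shPcyt2-1 (-0.06, adjusted p = 0.753) and 5.54 with shPcyt2-2 (0.35, adjusted p = 0.0818). Leaving out single libraries moved its shPcyt2-2 change between 0.22 and 0.47. Between the hairpins REST differed (0.40, adjusted p = 0.0321, lost under 5 of 13 alternatives). REST and its corepressors gave 2 higher and 0 lower of 12 with shPcyt2-1 (SIN3A, 0.29, adjusted p = 0.0337, and HDAC1, 0.24, adjusted p = 0.0274), which became 0 and 2 after median-ratio scaling. With shPcyt2-2 the list gave 0 higher and 1 lower, CTDSP1 (-0.32, adjusted p = 0.0448). The shares called, 16.7% and 8.33%, were below those of all genes, and the calls of SIN3A, HDAC1 and CTDSP1 were lost under 7, 5 and 8 of 13 alternatives, with CTDSP1 at -0.43 without shNT replicate 1 and -0.20 without shNT replicate 2.

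Genes that respond to cAMP and CREB were called as often up as down with shPcyt2-1, 3 higher and 3 lower of 23 (median -0.0021), and 1 higher and 0 lower were called with shPcyt2-2 (median 0.04). FOSL1, a subunit of AP-1, rose from 49.5 to 70.7 FPKM with shPcyt2-1 (0.51, adjusted p = 0.00269), while the immediate early gene EGR2 (-0.45, adjusted p = 0.0211) and the clock gene PER1 (-0.45, adjusted p = 0.0307) fell. EGR3, also an immediate early gene, rose with shPcyt2-2 (0.45, adjusted p = 0.024). The calls of EGR2, PER1 and EGR3 were lost under 5, 6 and 5 of 13 alternatives, and the change of PER1 ranged from -0.62 (without shPcyt2-1 replicate 2) to -0.27 (without shPcyt2-1 replicate 1). The share called with shPcyt2-1, 26.1%, lay near the 26.7% of all genes, and that with shPcyt2-2, 4.35%, lay below the 12.4%.

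Over the 9 wider lists and SCG3 together, without the 9 granule genes, 135 of 223 genes were tested. With shPcyt2-1, 32 rose and 13 fell, or 33.3% against 26.7% of all genes, and the median of those tested was 0.02 against 0.07. The 32 include UNC13A and ELAVL2, which passed the limit of 0.5 FPKM only with their shPcyt2-1 libraries included. These counts are therefore a description. With shPcyt2-2, 8 rose and 7 fell, or 11.1% against 12.4%, with a median of 0.00025 against 0.04. Between the hairpins, 16 were higher and 29 lower with shPcyt2-2, or 33.3% against 27.1%. Median-ratio scaling turned the shPcyt2-1 split to 27 up and 20 down and that of shPcyt2-2 to 6 up and 11 down. The shPcyt2-1 total of 45 was 24 without shNT replicate 2, 20 without shPcyt2-1 replicate 1 and 27 without shPcyt2-1 replicate 2, and the shPcyt2-2 total of 15 was 4 without shNT replicate 2, 0 without shPcyt2-2 replicate 1 and 8 without shPcyt2-2 replicate 2.

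**Figure D3:**
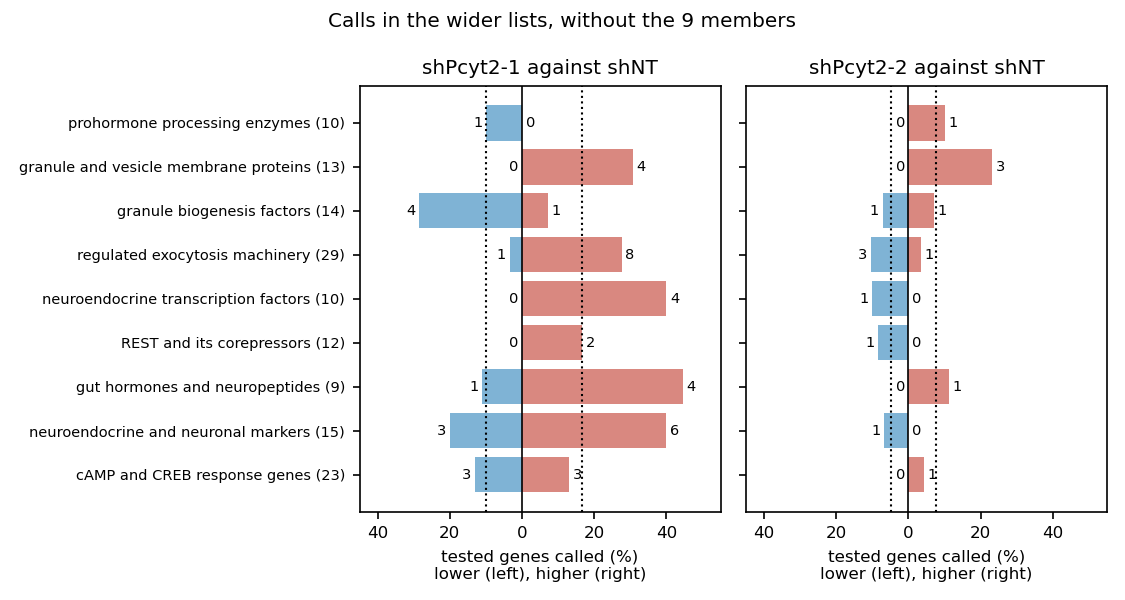
Share of tested genes called higher (right, red) and lower (left, blue) in each wider list, in percent, for shPcyt2-1 and shPcyt2-2 against shNT, with the number of genes at the bar ends, the number tested in parentheses and dotted lines at the shares over all genes. With shPcyt2-1 the bars to the right reach well past the dotted line at 16.5% in 5 of the lists. Among these, the exocytosis bar includes UNC13A and the marker bar ELAVL2, which passed the limit only with their shPcyt2-1 libraries included. With shPcyt2-2 no list has more than 3 genes called in either direction.

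Markers of other cells were read beside these results. The 16 stromal, endothelial and immune markers summed to 27.4 and 26.0 FPKM with shNT, 27.6 and 31.7 with shPcyt2-1, and 24.9 and 28.8 with shPcyt2-2, with CD68 the most abundant at between 16.0 and 22.7 FPKM. PTPRC, COL3A1 and LYVE1 were not listed, and PECAM1 did not exceed 0.0318 FPKM. Of the 5 tested, LUM alone was called with shPcyt2-1 and none with shPcyt2-2, LUM rising from 0.826 to 2.21 FPKM with shPcyt2-1 (0.81, adjusted p = 0.00192). Of 7 tested epithelial markers, 0 rose and 1 fell with shPcyt2-1, and 0 rose and 2 fell with shPcyt2-2 (14.3% and 28.6% called, against 26.7% and 12.4% of all genes). The epithelial factor CDX2 fell from 16.2 to 9.94 FPKM with shPcyt2-1 (-0.65, adjusted p = 0.00138), and it was at 15.6 with shPcyt2-2 (-0.06, adjusted p = 0.677). Both keratins of simple epithelia fell with shPcyt2-2, KRT8 by 0.41 (adjusted p = 0.00483) and KRT18 by 0.45 (adjusted p = 0.00319), each call being lost under 3 of 13 alternatives. Of 7 tested markers of other intestinal lineages, 1 rose and 2 fell with shPcyt2-1, and 3 rose and 1 fell with shPcyt2-2 (42.9% and 57.1% called, against the same shares of all genes). The Paneth cell defensins DEFA5 (1.02, adjusted p = 0.00426) and DEFA6 (1.70, adjusted p = 0.0235) and the tuft cell kinase DCLK1 (0.64, adjusted p = 0.00982) rose with shPcyt2-2, and the goblet cell peptide TFF3 fell with both hairpins (-0.44, adjusted p = 0.00222, and -0.25, adjusted p = 0.0313, the latter lost under 8 of 13 alternatives). DEFA5 also rose with shPcyt2-1 (0.54, adjusted p = 0.0187), and its calls were lost under 4 (shPcyt2-1) and 3 (shPcyt2-2) of 13 alternatives, that of DCLK1 under 4. DEFA6 was at 0.567 and 3.41 FPKM in the shNT libraries, and leaving out single libraries moved its shPcyt2-2 change between 0.95 (without shNT replicate 1) and 2.44 (without shNT replicate 2), with the call lost under 4 of 13 alternatives. The part of these markers in the changes of the granule genes was not tested.

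The genes whose pattern over the 6 libraries was most like that of VGF and SYP were sought among 455 genes that spanned at least 1 on the log2(FPKM + 1) scale. For VGF these were SYP (Pearson r 0.997), KRTAP2-3 (0.995), ATF5 (0.994), TMEM145 (0.992) and the pseudogene CIDECP (0.990). For SYP they were ATF5 (0.999), VGF (0.997), KRTAP2-3 (0.996), ARL14EPL (0.995) and RUNDC3A (0.993). With 6 points in 3 groups such values mostly describe the same high shPcyt2-1 pair. ATF5, a transcription factor of the ATF family, was at 25.9 and 31.6 FPKM with shNT, 70.7 and 72.4 with shPcyt2-1, and 25.3 and 25.1 with shPcyt2-2. KRTAP2-3, a keratin-associated protein gene whose near-identical copies make its level uncertain, was at 1.69 and 2.00 FPKM with shNT, 8.01 and 7.55 with shPcyt2-1, and 1.66 and 1.67 with shPcyt2-2, so that here, as for VGF and SYP, the shPcyt2-1 libraries stood alone.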

How the data were processed

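SW480 RNA was sequenced from 6 libraries, grouped by the labels. Per the labels, 2 library kits were named without saying which served which library, and the submitters' processing notes named the builds GRCh38, GRCm38 and mm10. The aligner and annotation behind these tables are not given in the sources used here. The authors deposited normalized values per gene, read here as FPKM from the values themselves (TPM over part of the genes cannot be told apart). Depth is unknown.

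Of 21539 identifiers, 19504 were matched to GENCODE 29 (GRCh38), 115 repeated ones were summed and 999 groups with identical values were merged, leaving 19746 genes. The study's methods name a count-based test, which needs counts, so limma 3.58.1 (R 4.3.3) with a mean-variance trend was fitted to log2(FPKM + 1) for the 12756 genes with a mean of at least 0.5, in 1 fit of 3 groups, with Benjamini-Hochberg adjustment over all of them. Fold changes on this scale understate changes of low genes. The fit was tested on simulated data. Promoters came from RefSeq (GRCh38.p14), and figures from matplotlib 3.10.9.

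The granule genes and all lists were chosen with earlier results of these data known. Named are PCYT2, REST, the 9 granule genes, up to 4 called genes of each list with the largest change in either hairpin comparison, each list's most abundant gene, and the 5 genes most like VGF and like SYP. The most abundant genes not described elsewhere were SYNGR2, VAMP8, KDM1A and JUNB. SCG3, the neuroendocrine markers and unlisted hormones were named besides from the lists. Alternatives covered the pseudocount, the limit on low values, scaling, the variance model, pooled hairpins, the replicate number as a block and each library left out.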

Additional observations from a re-analysis of the deposited data

Results flagged for a closer look

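For CHGB the direct limma test of shPcyt2-2 against shPcyt2-1 gave a log2 difference of -0.604 (adjusted p = 0.01). As CHGB passed the limit of 0.5 FPKM only through its shPcyt2-1 libraries, where it is high, this value is given as a description, and the call was lost without shPcyt2-1 replicate 1 (adjusted p = 0.0675), without shPcyt2-2 replicate 2 (0.0611), and when no limit and a pseudocount of 0.1 were used (0.0609). VGF (-2.68) and SYP (-2.29) were above every shNT library with shPcyt2-1 and below every one with shPcyt2-2, a difference between the hairpins that was not tested because the genes were chosen by their change with shPcyt2-1 against shNT, which rests on the same shPcyt2-1 libraries.

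The same direct test passed for many named genes of the wider lists, as it did for 27.1% of all genes. Lower with shPcyt2-2 than with shPcyt2-1 among genes of secretion were CPLX2 (-1.59), STX1A (-0.856), SCAMP5 (-0.744) and RAB2B (-0.354). UNC13A (-1.11) passed the limit of 0.5 FPKM only with its shPcyt2-1 libraries included, so its value is a description. Peptides and markers lower with shPcyt2-2 were UCN2 (-1.72), RUNDC3A (-1.27), GAP43 (-0.898), CALCB (-0.741), SSTR1 (-0.679) and ADM (-0.558). The factors lower with shPcyt2-2 were SOX4 (-0.644), FOXA1 (-0.498), POU3F2 (-0.439) and FOSL1 (-0.429), of which POU3F2 passed under 5 of 13 alternatives and ranged from -0.654 (without shPcyt2-2 replicate 1) to -0.225 (without shPcyt2-2 replicate 2). The cell type markers lower with shPcyt2-2 were LUM (-0.528), KRT18 (-0.475) and KRT8 (-0.358). Genes higher with shPcyt2-2 were BAIAP3 (1.34), GAST (1.07), EGR2 (0.809), UCHL1 (0.637), CDX2 (0.597), DEFA5 (0.485), PAM (0.403), REST (0.402) and DCLK1 (0.353). Without shPcyt2-2 replicate 1 or replicate 2, UCHL1 gave 0.375 or 0.899 and DEFA5 gave 0.302 or 0.668. Besides POU3F2, the calls of ADM, RAB2B, REST and DCLK1 were lost under 5 of 13 alternatives, those of UCHL1 and DEFA5 under 4, those of CALCB and PAM under 2, and those of FOXA1 and KRT8 under 1.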

How the results depend on the processing

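Called genes are given over all genes, over the wider lists and over the 3 tested granule genes other than VGF and SYP, for shPcyt2-1 against shNT (3400, 45 and 2), shPcyt2-2 against shNT (1585, 15 and 0) and shPcyt2-2 against shPcyt2-1 (3463, 45 and 1). With no limit on low values the shPcyt2-1 counts were 1831 and 27, those of shPcyt2-2 were 124 and 0, and 2 granule genes (CHGB and SCG2) were called between the hairpins. A pseudocount of 0.1 with no limit, chosen after seeing the data, gave 1965 and 26, then 163 and 0. It called 3 granule genes with shPcyt2-1 (CHGA, CHGB and SCG2) and 2 between the hairpins (CHGA and SCG2, CHGB being lost at adjusted p = 0.0609). A mean of at least 1, which leaves CHGB out, gave 1 granule gene with shPcyt2-1 and 0 between the hairpins, and no variance trend gave 1027 genes with shPcyt2-2. Both hairpins pooled against shNT gave 1 gene in all, 0 in the wider lists and 0 granule genes, with log2 fold changes of 1.00 for VGF, 0.892 for SYP and 0.0871 for PCSK1N, where shPcyt2-2 alone had the opposite sign. Leaving out single libraries, the counts with shPcyt2-1 ranged from 1160 to 3355 over all genes, from 20 to 48 in the lists and from 1 to 2 granule genes. With shPcyt2-2 they ranged from 125 to 1892 over all genes and from 0 to 21 in the lists, and between the hairpins from 1674 to 3783, from 24 to 48 and from 0 to 2. The fold change of CHGB with shPcyt2-2 ranged from -0.0195 (without shPcyt2-2 replicate 1) to 0.197, with -0.00116 without shNT replicate 1, and that of PCSK1N ranged from -0.203 to 0.165 (without shNT replicate 2), with 0.0275 without shPcyt2-2 replicate 2. The cause of these changes was not tested.

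Over all genes, median-ratio scaling gave 1475 higher and 1711 lower with shPcyt2-1, against 2109 and 1291, and 760 and 845 with shPcyt2-2, against 981 and 604, with shifts of the median of -0.06 and -0.04. The labels do not say whether same-numbered libraries were prepared together. Their deviations from the group means correlated at 0.0027, 0.0619 and 0.191, and groups of 2 give too few points to decide this. Blocking on the replicate number, limma called 3884, 2029 and 3869 genes, 50, 17 and 51 in the wider lists, and 2, 0 and 2 granule genes, CPE being added between the hairpins.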
